A study of Homo sapiens with 15 samples.

Results

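Enzalutamide was applied to VCaP cells on 2 backgrounds, and the question was which genes responded differently between them. VCaP is an established line of human prostate cancer cells. The contrast took 12 of the 15 bulk RNA-seq libraries of the series, 3 biological replicates of each of 4 sublines, and was formed as the step from VCaP-CT to VCaP-CT-ER minus that to VCaP-CT-BR-ER from VCaP-CT-BR. All 4 sublines descend from VCaP-T, which was kept on 10 nM testosterone for 7 months in charcoal-stripped serum and is not part of the contrast. VCaP-CT is VCaP-T after a further 10 months. Testosterone was then 0.1 nM per the culture protocol and the study's methods but 10 nM per the sample labels, a discrepancy that the counts cannot settle. VCaP-CT-ER is VCaP-CT grown in 10 µM enzalutamide until growth returned. VCaP-CT-BR is VCaP-CT carried through bicalutamide. The study describes it as cultured with bicalutamide and, on this background, gives enzalutamide to VCaP-CT-BR-ER only. The labels of VCaP-CT-BR also mention enzalutamide after bicalutamide insensitivity, which differs from that description. If VCaP-CT-BR had met enzalutamide, the step to VCaP-CT-BR-ER would not be a first exposure to it, which the counts cannot settle. VCaP-CT-BR-ER came from bicalutamide followed by enzalutamide until growth returned in both. Each subline is described as derived once, so treatment, time in culture and derivation cannot be told apart, and p-values measure only the spread between libraries of a subline. In bulk libraries, more RNA per cell and more cells of one kind cannot be told apart either.

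Androgens such as testosterone and dihydrotestosterone turn on genes of prostate epithelium such as the kallikreins, and many prostate cancers grow only while this signal lasts. Bicalutamide and enzalutamide are antiandrogens, drugs that block the response to these hormones. Cells that grow again under such a drug are known to do so with a restored hormone response, with other steroid receptors in its place, or with programs that no longer depend on it.

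In the values below, an interaction is the log2 fold change of the step on VCaP-CT minus that on VCaP-CT-BR, given ± its SE, so a positive interaction means that the step went further up, or less far down, on VCaP-CT. The adjusted p is that of edgeR's quasi-likelihood test with Benjamini-Hochberg adjustment over all genes tested, and a gene was called at 0.05. CPM are counts per 1000000 counts of the library after TMM scaling, listed for replicates 1, 2 and 3. Steps are given as log2 fold changes, first on VCaP-CT and then on VCaP-CT-BR. Both steps use different libraries, whereas differences of VCaP-CT-BR from VCaP-CT share libraries with both steps.

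Libraries held 33665716 to 46935279 counted fragments, and each of the 12 had its highest correlation with another replicate of the same subline. The 9 luminal prostate and VCaP markers checked were present in every library, the lowest being KLK3 at 13.5 CPM before TMM scaling. Of 12 markers of blood, endothelial, stromal, liver and muscle cells, 7 stayed under 1 CPM in every library. The liver gene ALB was the highest of them at 13.1 to 33.3 CPM, and PTPRC, CD3E and HBB did not exceed 2 counts.

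The step differed between the 2 backgrounds for many genes. Of 18978 genes tested, 9639 (50.8%) had a called interaction, 4899 (25.8%) higher and 4740 (25.0%) lower on VCaP-CT. A called interaction of at least 2-fold was found for 3009 genes (15.9%), of which 1347 (7.10%) were higher and 1662 (8.76%) lower. The median interaction over all genes tested was 0.01.

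Those 3009 genes were sorted by what each step did. Steps were opposite, both called and each at least 0.5 on the log2 scale, for 463 genes. The step was at least 2-fold on VCaP-CT and under 0.5 on VCaP-CT-BR for 1017 genes, and the reverse held for 232. The smaller step could itself be called, as for JAG1 on VCaP-CT-BR (0.22, adjusted p = 0.0011) and SDHA on VCaP-CT (−0.45, adjusted p = 4.82e-07). A move on 1 background only thus means a step under this limit on the other, not the absence of a step. In the direction of VCaP-CT, 177 opposite genes (0.933% of those tested) rose and 286 (1.51%) fell. The genes moved on VCaP-CT only were 464 (2.44%) that rose and 553 (2.91%) that fell. On VCaP-CT-BR only, 137 (0.722%) rose and 95 (0.501%) fell. A further 379 moved the same way by different amounts, and 918 (4.84%) fell between these limits.

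**Figure D1:**
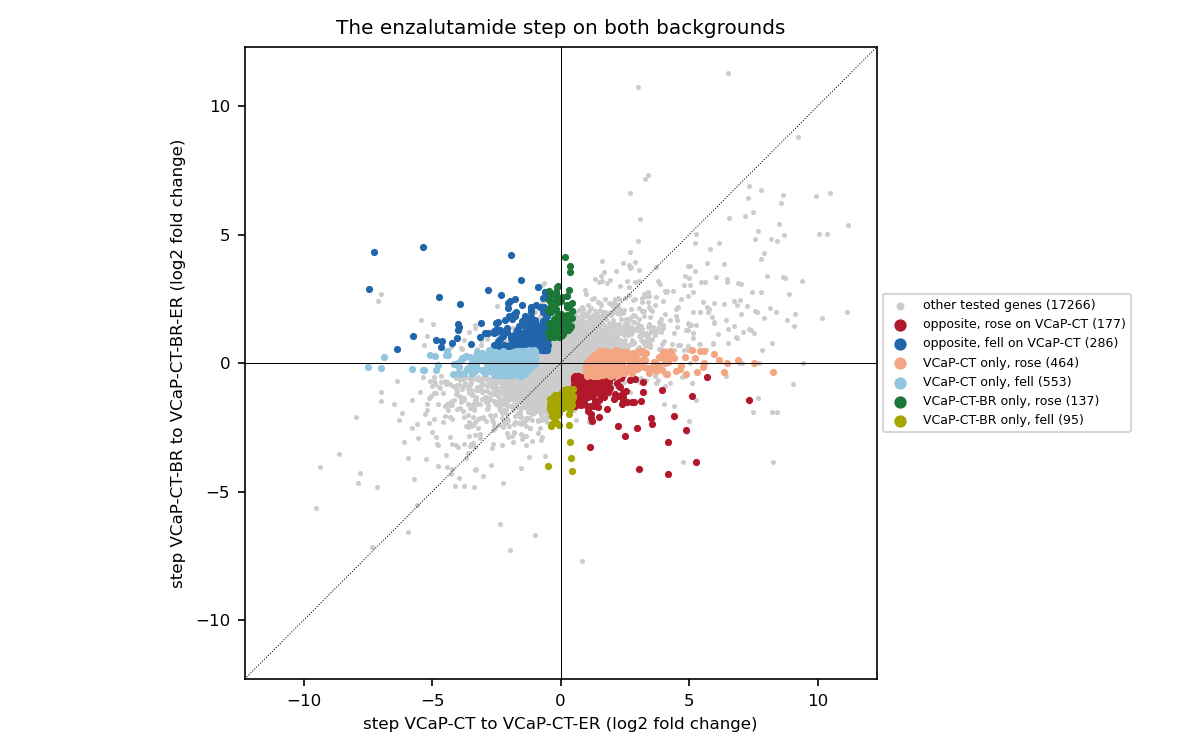
Each point is 1 of the 18978 genes tested, with the step on VCaP-CT on the horizontal axis and the step on VCaP-CT-BR on the vertical axis, both in log2 fold change, and the dotted line marks equal steps. The 1017 genes that moved on VCaP-CT only lie along the horizontal axis and the 232 that moved on VCaP-CT-BR only along the vertical axis.

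The sublines from which the steps started differed in these classes. For the 177 opposite genes that rose on VCaP-CT, the median level of VCaP-CT-BR stood 0.94 log2 units from VCaP-CT, that of VCaP-CT-ER 1.0 and that of VCaP-CT-BR-ER 0.03. The 286 opposite genes that fell on VCaP-CT had medians of −1.09 for VCaP-CT-BR, −1.04 for VCaP-CT-ER and −0.21 for VCaP-CT-BR-ER. In both opposite classes VCaP-CT-BR and VCaP-CT-ER thus lay on the same side of VCaP-CT, and VCaP-CT-BR-ER lay nearest to it. Genes that rose on VCaP-CT only had medians of 1.56 for VCaP-CT-ER, 0.65 for VCaP-CT-BR and 0.67 for VCaP-CT-BR-ER. Those that fell on VCaP-CT only had −1.51, −0.9 and −0.89 in the same order. All these medians use the same VCaP-CT libraries and describe classes chosen by the steps, so they carry no test.

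**Figure D2:**
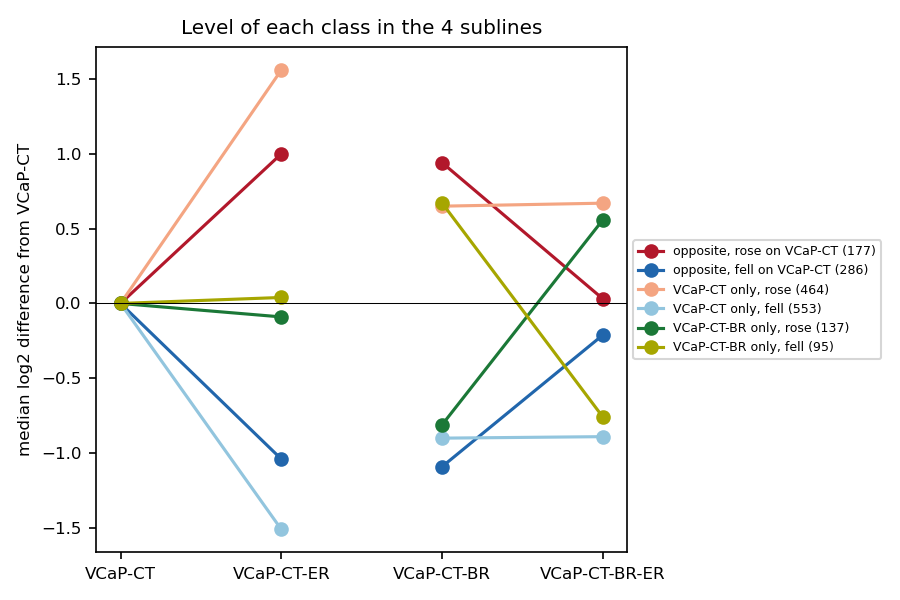
Median log2 difference from VCaP-CT (vertical axis) of the genes of each class in the 4 sublines (horizontal axis), with lines joining the 2 ends of each enzalutamide step. The genes that rose on VCaP-CT only reach 1.56 for VCaP-CT-ER and stay near 0.65 in both bicalutamide-derived sublines.

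Promoter sequences are shown for 4 genes, ID1 and ID3 because they rose together on VCaP-CT with the largest interactions of their pathway, OSGIN1 and RAB25 because their promoters hold a motif that was searched. They are the 250 bases before the RefSeq start, 5′ to 3′ on the gene's strand, on GRCh38.p14, with a motif match in capitals. ID1 lies at chr20:31605039-31605288 on the plus strand, ID3 at chr1:23559502-23559751 on the minus strand, OSGIN1 at chr16:83952990-83953239 on the plus strand and RAB25 at chr1:156060910-156061159 on the plus strand.
ID1: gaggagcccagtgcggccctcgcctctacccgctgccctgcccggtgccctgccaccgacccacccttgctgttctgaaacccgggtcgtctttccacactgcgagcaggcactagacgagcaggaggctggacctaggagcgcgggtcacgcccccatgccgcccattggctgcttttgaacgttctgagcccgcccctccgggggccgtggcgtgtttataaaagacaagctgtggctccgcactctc
ID3: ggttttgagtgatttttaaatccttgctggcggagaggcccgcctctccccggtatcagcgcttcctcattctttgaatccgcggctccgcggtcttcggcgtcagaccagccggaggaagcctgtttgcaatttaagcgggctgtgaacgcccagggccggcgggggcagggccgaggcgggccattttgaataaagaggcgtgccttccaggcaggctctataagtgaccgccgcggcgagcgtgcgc
OSGIN1: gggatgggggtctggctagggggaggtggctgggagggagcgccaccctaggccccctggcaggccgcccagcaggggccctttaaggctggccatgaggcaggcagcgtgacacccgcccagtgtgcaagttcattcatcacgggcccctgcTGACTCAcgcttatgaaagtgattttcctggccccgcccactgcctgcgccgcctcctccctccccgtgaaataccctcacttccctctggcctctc
RAB25: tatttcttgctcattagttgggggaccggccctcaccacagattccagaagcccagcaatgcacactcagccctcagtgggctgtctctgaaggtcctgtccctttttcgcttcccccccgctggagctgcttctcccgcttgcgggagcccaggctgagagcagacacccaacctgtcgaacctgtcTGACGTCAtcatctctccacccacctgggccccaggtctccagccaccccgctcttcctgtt
OSGIN1, which had opposite steps, holds TGACTCA, the AP-1 motif, from base −97. RAB25, which fell on VCaP-CT only, holds TGACGTCA, the cAMP response element, from base −62. No match to the 6 motifs was found in the windows of ID1 and ID3.

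All 6 motifs were looked for on both strands in the 300 bases around the start, from 250 before to 50 after, of the 11944 tested genes with a RefSeq promoter. The androgen response element in its palindromic form was in 1 of them, in none of the 6 classes. TGACTCA was in 3.2% of all promoters, and in 6.4% of those that rose on VCaP-CT only, 5.3% and 5.2% of the opposite genes that rose and fell there, and 3.9% of those that fell on VCaP-CT only. The classes of VCaP-CT-BR only held it in 4.3% of those that rose and 5.5% of those that fell, so all 6 classes lay above the share over all promoters. The NRF2 motif (the antioxidant response element), which shares its first letters with TGACTCA and can overlap it, was in 3.0% of all promoters and in 0.6% to 3.3% of a class. For TACGTG (hypoxia response), TGACGTCA and TTTCCCGC (E2F) the shares over all promoters were 3.4%, 3.1% and 2.5%, and no class exceeded 3.4%, 3.5% and 3.2%. The classes hold 55 to 362 promoters, and these shares were not tested.

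Among the opposite genes, those that rose on VCaP-CT and fell on VCaP-CT-BR had their largest interactions in a noncoding RNA, a cadherin, a secreted inhibitor and a cancer-testis antigen. MIR2052HG, a microRNA host gene, stood at 0.605, 0.43 and 0.527 CPM in VCaP-CT and 80.7, 78.8 and 88.8 CPM in VCaP-CT-ER. On the other background it had 1.99, 2.02 and 1.74 CPM in VCaP-CT-BR and 0.801, 0.84 and 0.497 CPM in VCaP-CT-BR-ER. The interaction was 8.73 ± 0.22 (adjusted p = 9.49e-15, steps 7.31 and −1.42). PI15, a secreted peptidase inhibitor encoded beside it on chromosome 8, held 1.75, 0.859 and 1.19 CPM in VCaP-CT and 34.8, 36 and 41.4 CPM in VCaP-CT-ER. It held 6.31, 5.76 and 6.08 CPM in VCaP-CT-BR and 0.898, 1.06 and 1.02 CPM in VCaP-CT-BR-ER, with an interaction of 7.5 ± 0.21 (adjusted p = 3.28e-14). Neither gene's libraries overlapped between the ends of either step.

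CDH17, the liver-intestine cadherin, rose from 0.333, 0.458 and 0.776 CPM in VCaP-CT to 9.23, 8.44 and 10.9 CPM in VCaP-CT-ER. It held 0.699, 1.06 and 1.02 CPM in VCaP-CT-BR, while no library of VCaP-CT-BR-ER exceeded 3 counts, so it was at least 11.5-fold lower there against a floor of 3 counts per library. CSAG1, a cancer-testis antigen on the X chromosome, went from 0.544, 0.401 and 0.36 to 7.34, 8.04 and 8.34 CPM on VCaP-CT. It held 0.414, 0.425 and 0.546 CPM in VCaP-CT-BR and at most 3 counts in VCaP-CT-BR-ER, at least 5.71-fold lower. Both genes were called, with adjusted p of 4.61e-10 and 2.52e-10, while the size of their fitted interaction depends on the prior count and is no measure of the fold. MAGEA12, another cancer-testis antigen, had steps 3.51 and −2.12 and was picked after its values were seen, and its exons overlap those of CSAG4.

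Other opposite genes that rose on VCaP-CT encode surface and signalling proteins. The following 4 were picked after their values were seen. MME, the cell-surface endopeptidase neprilysin, held 0.998, 1.09 and 1.33 CPM in VCaP-CT and 9.29, 8.48 and 10.5 CPM in VCaP-CT-ER. It fell from 3.03, 3.58 and 2.95 CPM in VCaP-CT-BR to 0.267, 0.163 and 0.105 CPM in VCaP-CT-BR-ER, an interaction of 7.16 ± 0.28 (adjusted p = 1.25e-12). SHH, the hedgehog ligand, rose from 0.907, 0.831 and 1.14 to 21.1, 18.4 and 21.3 CPM on VCaP-CT and fell from 10.6, 11.3 and 11.1 to 2.38, 2.74 and 2.82 CPM on VCaP-CT-BR, an interaction of 6.45 ± 0.16 (adjusted p = 4.25e-15). The neural adhesion molecules NRCAM and CNTN4 had interactions of 5.48 ± 0.13 and 4.42 ± 0.16, with steps of 2.95 and −2.53 for NRCAM and of 1.13 and −3.28 for CNTN4.

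The opposite genes that fell on VCaP-CT and rose on VCaP-CT-BR were led by olfactory receptors. OR51E1, a receptor of the olfactory family known from prostate, held 12.9, 14.4 and 13.2 CPM in VCaP-CT and 0.0416, 0.126 and 0.0496 CPM in VCaP-CT-ER. It then held 0.0776, 0.239 and 0.149 CPM in VCaP-CT-BR and 0.995, 1.14 and 1.36 CPM in VCaP-CT-BR-ER, with an interaction of −10.35 ± 0.39 (adjusted p = 8.28e-13, steps −7.46 and 2.89). OR51E1 had 2 to 6 counts per library in VCaP-CT-ER and 3 to 9 in VCaP-CT-BR, so the size of these values is uncertain. The level of VCaP-CT-BR-ER stayed under that of VCaP-CT in every library. OR51E2, its neighbour at chr11:4680171-4697854, held 11.8, 12.8 and 11.2 CPM in VCaP-CT and 0.0832, 0.042 and 0.0993 CPM in VCaP-CT-ER. It had at most 3 counts per library in VCaP-CT-BR and 0.558, 1.03 and 0.654 CPM in VCaP-CT-BR-ER, at least 9.53-fold higher, and its exons overlap those of the pseudogene OR51C1P. The long noncoding RNA ST8SIA6-AS1 held 5.23, 6.79 and 6.9 CPM in VCaP-CT and 0.0208, 0.126 and 0.0745 CPM in VCaP-CT-ER. On VCaP-CT-BR it held 5.07, 4.19 and 4.54 CPM in VCaP-CT-BR and 6.56, 6.34 and 7.06 CPM in VCaP-CT-BR-ER, close to its starting level on VCaP-CT, with an interaction of −6.9 ± 0.30. With 1 to 6 counts per library in VCaP-CT-ER, the size of this interaction is uncertain. PLEKHG4B, a guanine exchange factor, is described with its neighbours on chromosome 5 below.

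Genes that rose on VCaP-CT only included neural adhesion molecules and secreted proteins. TENM2, a teneurin of synapses, held 0.181, 0.0859 and 0.139 CPM in VCaP-CT and 9.88, 9.34 and 10.1 CPM in VCaP-CT-ER. It held 0.0776, 0.106 and 0.0992 CPM in VCaP-CT-BR and 0.0728, 0.135 and 0.105 CPM in VCaP-CT-BR-ER, with an interaction of 6.02 ± 0.63 (adjusted p = 4.52e-07). APOH, a plasma lipoprotein, held 1.09, 0.43 and 0.416 CPM in VCaP-CT and 27.3, 25.5 and 29 CPM in VCaP-CT-ER. Its levels on the other background were 0.44, 0.451 and 0.521 CPM in VCaP-CT-BR and 0.51, 0.704 and 0.732 CPM in VCaP-CT-BR-ER, with an interaction of 4.97 ± 0.42. SPINK1, a secreted trypsin inhibitor known from a subset of prostate cancers, held 5.32, 4.87 and 6.35 CPM in VCaP-CT and 85.2, 87.5 and 89.3 CPM in VCaP-CT-ER. It held 6.34, 5.2 and 5.98 CPM in VCaP-CT-BR and 6.41, 6.96 and 6.75 CPM in VCaP-CT-BR-ER, with an interaction of 3.79 ± 0.13 (adjusted p = 2.4e-13). For TENM2, APOH and SPINK1, both sublines of the VCaP-CT-BR background remained near the level of VCaP-CT. TENM2 had only 3 to 6 counts per library in VCaP-CT, 3 to 4 in VCaP-CT-BR and 3 to 5 in VCaP-CT-BR-ER. The size of its interaction is therefore uncertain, and a small step on VCaP-CT-BR could not be seen. ATOH8, a basic helix-loop-helix factor, differed, with 0.272, 0.516 and 0.444 CPM in VCaP-CT and 12.8, 11.7 and 11.9 CPM in VCaP-CT-ER but 7.24, 9.35 and 9.77 CPM in VCaP-CT-BR and 4.69, 8.4 and 6.46 CPM in VCaP-CT-BR-ER, so that both bicalutamide-derived sublines already stood well above VCaP-CT. IGFBP3, a carrier of insulin-like growth factors picked after its values were seen, had the same arrangement, with 11, 9.14 and 9.93 CPM in VCaP-CT and 255, 236 and 270.1 CPM in VCaP-CT-ER and 119.8, 119 and 115 CPM in VCaP-CT-BR and 73.8, 129 and 95.6 CPM in VCaP-CT-BR-ER.

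Genes that fell on VCaP-CT only included matrix and secreted proteins. FMOD, the collagen-binding proteoglycan fibromodulin, held 9.89, 10.5 and 9.09 CPM in VCaP-CT and 0.0624, 0.147 and 0 CPM in VCaP-CT-ER. It held 0.181, 0.319 and 0.372 CPM in VCaP-CT-BR and 0.243, 0.298 and 0.235 CPM in VCaP-CT-BR-ER, with an interaction of −6.83 ± 0.61 (adjusted p = 7.05e-08). FMOD had 0 to 7 counts per library in VCaP-CT-ER, so this size is uncertain. EFCC1, a protein with calcium-binding EF-hand domains, had 10.4, 10.6 and 8.37 CPM in VCaP-CT, 0.374, 0.567 and 0.372 CPM in VCaP-CT-ER, and 2.28, 2.58 and 2.36 CPM in VCaP-CT-BR and 3.16, 2.71 and 3.03 CPM in VCaP-CT-BR-ER. TFF3, a trefoil factor of mucous secretions, held 23.3, 29.9 and 23.9 CPM in VCaP-CT and 0.686, 0.651 and 0.521 CPM in VCaP-CT-ER. It held 2.41, 2.5 and 2.65 CPM in VCaP-CT-BR and 2.14, 2.09 and 1.99 CPM in VCaP-CT-BR-ER, with an interaction of −5.08 ± 0.20 (adjusted p = 2.41e-12). For FMOD, EFCC1 and TFF3, VCaP-CT-BR was already below VCaP-CT in every library. JAG1, a NOTCH ligand, was not, and held 92.1, 92.3 and 88.3 CPM in VCaP-CT and 21.2, 19.3 and 20.5 CPM in VCaP-CT-ER against 91.3, 94.8 and 94.8 CPM in VCaP-CT-BR and 111, 107 and 109 CPM in VCaP-CT-BR-ER. PIK3IP1, a negative regulator of PI3 kinase picked after its values were seen, held 25.4, 26.1 and 24.5 CPM in VCaP-CT and 1.91, 1.68 and 2.01 CPM in VCaP-CT-ER against 20.5, 20.4 and 19.5 CPM in VCaP-CT-BR and 15.6, 15.1 and 15.1 CPM in VCaP-CT-BR-ER.

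Changes on VCaP-CT-BR only were fewer. ZFP36L1, a protein that directs mRNA decay, held 7.29, 8.74 and 7.46 CPM in VCaP-CT and 10.7, 9.68 and 10.1 CPM in VCaP-CT-ER. It rose from 2.33, 2.47 and 2.48 CPM in VCaP-CT-BR to 32.1, 25.8 and 27.4 CPM in VCaP-CT-BR-ER, an interaction of −3.17 ± 0.14 (adjusted p = 1.24e-11). The other genes that led this class, SDHA, ZDHHC11 and BRD9, all lie at the start of chromosome 5 and are given below. Genes that fell on VCaP-CT-BR only included CSMD2, a large membrane protein with complement-like domains, with 5.87, 6.62 and 6.4 CPM in VCaP-CT and 8.17, 7.68 and 8.07 CPM in VCaP-CT-ER. It held 17.3, 19.3 and 18.4 CPM in VCaP-CT-BR and 3.4, 3.39 and 3.43 CPM in VCaP-CT-BR-ER, an interaction of 2.77 ± 0.11 (adjusted p = 3.33e-12). ALDH1A1, an aldehyde dehydrogenase that makes retinoic acid, held 112, 101 and 109 CPM in VCaP-CT and 107, 110.4 and 127 CPM in VCaP-CT-ER. It held 73.7, 67.1 and 66.6 CPM in VCaP-CT-BR and 20.2, 20.7 and 21.2 CPM in VCaP-CT-BR-ER, an interaction of 1.84 ± 0.094. DOCK2, an exchange factor best known from blood cells, had steps −0.35 and −2.38, and PAQR5, a membrane progestin receptor, steps −0.2 and −2.06.

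**Figure D3:**
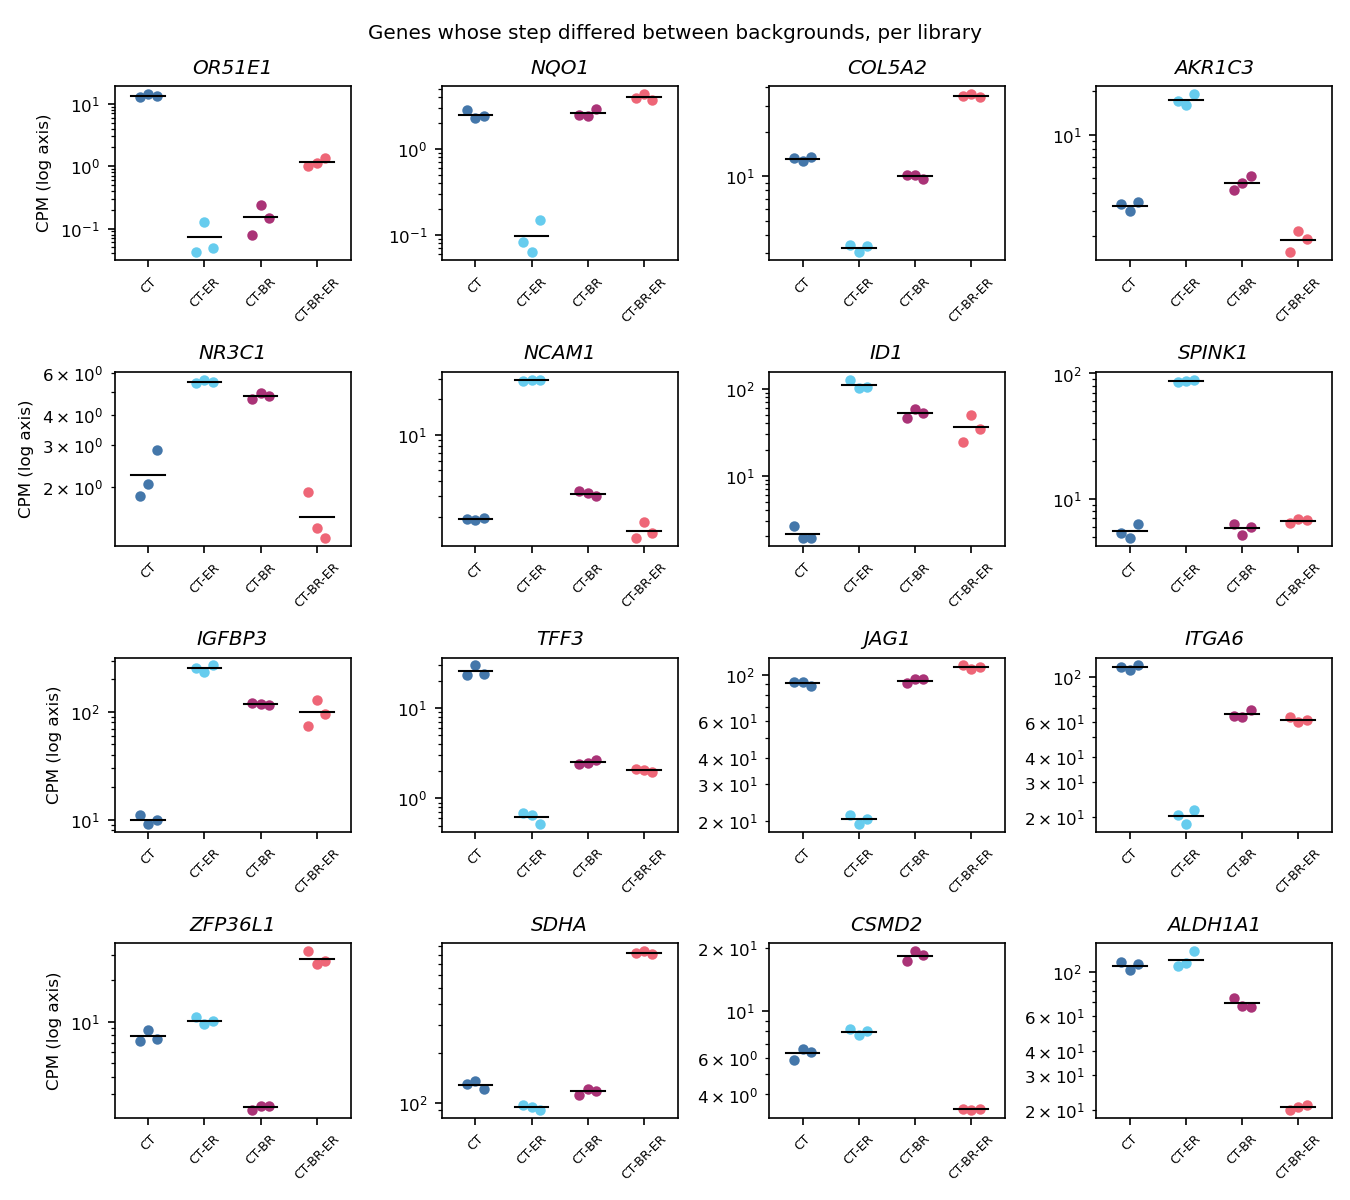
CPM after TMM scaling (vertical axis, log scale) of 16 genes in each library, with 3 points per subline and a bar at their mean. OR51E1, NQO1 and COL5A2 fell on VCaP-CT and rose on VCaP-CT-BR, AKR1C3, NR3C1, NCAM1 and ID1 did the reverse, and the remaining genes moved at least 2-fold on 1 background only. The fall of ID1 on VCaP-CT-BR was small (−0.55), and its libraries there overlapped.

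Programs were then described from lists of genes, each by its counts and its median beside those of all genes tested, 50.8% called and a median interaction of 0.01. Of 36 tested genes that androgens induce in prostate epithelium, 18 were called higher on VCaP-CT and 9 lower, with a median interaction of 0.15. EAF2, an elongation factor partner, had opposite steps of 1.6 and −0.72. KLK2, a kallikrein protease, held 5312, 5263 and 4909 CPM in VCaP-CT-BR and 3349, 3456 and 3265 CPM in VCaP-CT-BR-ER, while its step on VCaP-CT was 0.1 (interaction 0.72 ± 0.069). FKBP5, a chaperone partner of steroid receptors, had steps 1.03 and 0.21. KLK3, which encodes prostate-specific antigen, rose on both, from 32.7, 34.7 and 32 to 529.6, 538 and 499 CPM and from 14.4, 14.7 and 13.5 to 38.1, 42 and 39.9 CPM.

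Other androgen-induced genes moved differently. TRPM8, a cold-sensing channel, fell on both backgrounds (steps −9.38 and −4.04). STEAP4, a metalloreductase, fell on VCaP-CT only (interaction −4.09, steps −4.14 and −0.05), as did ALDH1A3, another retinoic acid enzyme (steps −2.64 and −0.3), and STEAP2 rose on VCaP-CT only (steps 1.03 and −0.25). TMPRSS2, whose promoter drives ERG in VCaP cells, had steps −0.62 and 0.07 and ERG steps −0.59 and 0.08, interactions of −0.69 ± 0.075 and −0.66 ± 0.064.

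Receptors of steroids were split. NR3C1, the glucocorticoid receptor, held 1.84, 2.06 and 2.86 CPM in VCaP-CT and 5.43, 5.63 and 5.49 CPM in VCaP-CT-ER. It fell from 4.66, 4.96 and 4.81 CPM in VCaP-CT-BR to 1.92, 1.35 and 1.23 CPM in VCaP-CT-BR-ER, an interaction of 2.95 ± 0.22 (adjusted p = 5.92e-09). Its libraries did not overlap between the ends of either step. NR2F1, an orphan receptor, fell on VCaP-CT-BR only (steps 0.33 and −1.99). Among 28 tested receptors 9 were higher and 10 lower (median −0.15, and −0.24 to −0.30 with any 1 of 6 libraries left out: replicate 3 of VCaP-CT, 1 of VCaP-CT-ER, 2 or 3 of VCaP-CT-BR, or 1 or 3 of VCaP-CT-BR-ER).

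Enzymes that make and clear androgens differed by background. AKR1C3, which makes testosterone from androstenedione, held 3.33, 3.01 and 3.44 CPM in VCaP-CT and 16.9, 16 and 19 CPM in VCaP-CT-ER. It held 4.19, 4.65 and 5.21 CPM in VCaP-CT-BR and 1.55, 2.19 and 1.91 CPM in VCaP-CT-BR-ER, an interaction of 3.73 ± 0.17 (adjusted p = 1.76e-11), and AKR1C1 and AKR1C2, near-identical relatives whose reads may be shared, rose on VCaP-CT only (1.75 and 1.56). SRD5A1, a 5-alpha-reductase, had steps −0.94 and 0.51, and SULT2B1, a steroid sulfotransferase, rose on VCaP-CT-BR only (steps −0.12 and 2.37). In all, 6 of 14 tested synthesis genes were higher and 4 lower. Of the 5 tested glucuronidation genes, whose enzymes inactivate androgens, 3 were higher and none lower, a share (60.0%) near that of all genes tested, and under a minimum of 10 counts per library 1 was called and the median went from 0.83 to 0.30. In the lower direction there were 0 at an unadjusted p under 0.05 and 0 by DESeq2. UGT2B15 held 0.302, 0.115 and 0.61 CPM in VCaP-CT and 3.29, 3.42 and 4.69 CPM in VCaP-CT-ER and 0.259, 0.265 and 0.298 CPM in VCaP-CT-BR and 0.243, 0.217 and 0.261 CPM in VCaP-CT-BR-ER, and UGT2B17, a near-identical paralog, had opposite steps of 2.83 and −1.5, so reads could be split between them.

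The NRF2 list of antioxidant genes went both ways, with 10 of 31 higher and 15 lower (median −0.26). NQO1, a quinone reductase, held 2.81, 2.29 and 2.41 CPM in VCaP-CT and 0.0832, 0.063 and 0.149 CPM in VCaP-CT-ER. It rose from 2.48, 2.44 and 2.9 CPM to 3.96, 4.36 and 3.66 CPM on VCaP-CT-BR, an interaction of −5.27 ± 0.29 (adjusted p = 1.43e-10). OSGIN1, a growth inhibitor, moved the other way, with 2.63, 3.81 and 2.22 CPM in VCaP-CT and 7.59, 6.76 and 5.78 CPM in VCaP-CT-ER and 3.62, 4.43 and 4.79 CPM in VCaP-CT-BR and 2.79, 3.06 and 2.72 CPM in VCaP-CT-BR-ER. SLC7A11, the cystine transporter, rose on VCaP-CT only (steps 1.43 and 0.09).

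The TGF-beta and BMP list went both ways, and its largest higher interactions were in ID genes. The ID proteins are partner factors that block other helix-loop-helix proteins and are direct targets of this pathway. ID1 held 2.63, 1.92 and 1.91 CPM in VCaP-CT and 128, 102 and 106 CPM in VCaP-CT-ER. It held 46.4, 58.9 and 53.2 CPM in VCaP-CT-BR and 24.2, 50.1 and 34.3 CPM in VCaP-CT-BR-ER, an interaction of 6.25 ± 0.30 (adjusted p = 2.17e-11). VCaP-CT-BR stood above VCaP-CT in every library, and those with and without enzalutamide on that background overlapped. ID3 held 8.95, 10.7 and 8.29 CPM in VCaP-CT and 176, 151 and 153 CPM in VCaP-CT-ER and 70.1, 92.2 and 82.8 CPM in VCaP-CT-BR and 44.4, 83.8 and 56.6 CPM in VCaP-CT-BR-ER (interaction 4.51 ± 0.24). ID4 had steps 2.92 and 0.29 and ID2 steps 1.03 and 0.00. The inhibitory SMAD6 held 9.98, 10.1 and 9.34 CPM in VCaP-CT and 22.6, 22.9 and 22.3 CPM in VCaP-CT-ER and fell from 24.2, 25.9 and 24.7 to 11.7, 16.4 and 12.6 CPM on VCaP-CT-BR, and SMAD9, a receptor-regulated SMAD, had opposite steps of 0.89 and −0.82. Activin subunits went the other way. INHBA held 16.5, 12.6 and 16.7 CPM in VCaP-CT and 0.582, 0.609 and 0.645 CPM in VCaP-CT-ER and 19.9, 18.2 and 18.4 CPM in VCaP-CT-BR and 11.2, 11.2 and 11.2 CPM in VCaP-CT-BR-ER, and INHBB had opposite steps of −0.58 and 1.5. Over the 32 tested genes of the TGF-beta and BMP list, 16 were higher and 8 lower, with a median interaction of 0.42.

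The NOTCH list moved in 1 direction. NOTCH receptors are cleaved after binding a ligand on a neighbouring cell and turn on HES and HEY factors. Of 19 tested members 16 were lower and none higher (84.2% called), with a median interaction of −1.01 from median steps of −0.45 and 0.33. In the higher direction there were 0 at an unadjusted p under 0.05 and 0 by DESeq2. Among ligands, JAG1 had an interaction of −2.38 ± 0.069 (adjusted p = 3.87e-14) and JAG2 of −0.8. Among receptors, NOTCH3 had steps of −0.27 and 0.83, NOTCH1 of 0.09 and 0.94, and NOTCH2 of 0.12 and 0.38. Of the target factors, HES2 and HEY1 fell on VCaP-CT only (interactions −1.66 and −1.41), while HES1 went further up on VCaP-CT-BR (steps 0.53 and 1.41). The coactivator MAML2 held 14, 14.8 and 17.2 CPM in VCaP-CT and 0.79, 1.22 and 1.02 CPM in VCaP-CT-ER and 5.98, 7.12 and 6.75 CPM in VCaP-CT-BR and 4.42, 3.95 and 4.08 CPM in VCaP-CT-BR-ER. DTX1, a regulator of receptor turnover, had opposite steps of −1.02 and 0.62. The mean level of the list, each gene centred on its mean over the 12 libraries, was 0.48, 0.61 and 0.41 in VCaP-CT and −0.23, −0.3 and −0.48 in VCaP-CT-ER, against −0.4, −0.12 and −0.18 in VCaP-CT-BR and 0.1, 0.1 and 0.02 in VCaP-CT-BR-ER, in log2 units.

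Genes of the G2 and M phases of the cell cycle went further up on VCaP-CT. Of 54 tested, 45 were higher and 2 lower (87% called), with a median interaction of 0.64 from median steps of 0.61 and 0.06. TOP2A, the topoisomerase that untangles mitotic chromosomes, held 295, 262 and 290.1 CPM in VCaP-CT and 722, 716 and 778 CPM in VCaP-CT-ER. It held 631, 579.7 and 609.8 CPM in VCaP-CT-BR and 729, 655 and 714 CPM in VCaP-CT-BR-ER, an interaction of 1.18 ± 0.079 (adjusted p = 1.67e-09). CKS1B, a partner of cyclin-dependent kinases with several processed pseudogenes, held 76.4, 77.6 and 82 CPM in VCaP-CT and 192, 194 and 206 CPM in VCaP-CT-ER and 184, 185 and 176 CPM in VCaP-CT-BR and 197, 191 and 192 CPM in VCaP-CT-BR-ER. Every library of the other 3 sublines stood above those of VCaP-CT in both genes. The level of the whole list was −0.57 ± 0.051 (SD, n = 3) for VCaP-CT, 0.03 ± 0.045 for VCaP-CT-ER, 0.28 ± 0.03 for VCaP-CT-BR and 0.26 ± 0.015 for VCaP-CT-BR-ER. The proliferation marker MKI67, by contrast, was not called (interaction 0.12 ± 0.068, adjusted p = 0.137), with 179.8, 183 and 191 CPM in VCaP-CT and 204, 203 and 218 CPM in VCaP-CT-ER and 355, 334 and 360.2 CPM in VCaP-CT-BR and 373, 343 and 368 CPM in VCaP-CT-BR-ER. S phase genes were higher in 22 and lower in 4 of 42 (median 0.21). The largest interaction among them was MRPL36, a mitochondrial ribosomal protein at the start of chromosome 5. MYC had steps −0.72 and 0.06 (interaction −0.78 ± 0.092).

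Neurosecretory and synaptic genes, which can rise when prostate cancers lose their luminal identity, were called higher in 12 and lower in 6 of 28, with a median interaction of 0.24 that was 0.13 to 0.53 with single libraries left out and −0.09 among members with at least 10 counts in every library. NCAM1, the neural cell adhesion molecule, held 1.9, 1.86 and 1.94 CPM in VCaP-CT and 28.8, 29.2 and 29.5 CPM in VCaP-CT-ER. It held 3.29, 3.16 and 2.98 CPM in VCaP-CT-BR and 1.31, 1.81 and 1.44 CPM in VCaP-CT-BR-ER, an interaction of 4.98 ± 0.15 (adjusted p = 6.35e-14), with exons overlapping an antisense gene. SCG2, a secretory granule protein, held 0.121, 0.229 and 0.25 CPM in VCaP-CT and 11.5, 11.7 and 14 CPM in VCaP-CT-ER and 0.259, 0.504 and 0.248 CPM in VCaP-CT-BR and 0.437, 0.515 and 0.758 CPM in VCaP-CT-BR-ER. CPE, a prohormone-processing enzyme, had opposite steps of 2.4 and −0.51, and NLGN1, a synaptic adhesion molecule, rose on VCaP-CT only (steps 4.4 and 0.19). GPM6A, a neuronal membrane protein, rose on both (steps 10.38 and 5.02). BEX1 had at most 3 counts per library in VCaP-CT and VCaP-CT-BR, so its interaction is not given, and its call (adjusted p = 0.0321) was lost when replicate 3 of VCaP-CT-BR was left out. SYP and UCHL1, established neuroendocrine markers, fell on VCaP-CT-BR only (steps −0.26 and −1.49 and steps 0.33 and −1.11), and ENO2 had steps −0.16 and 0.06.

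Matrix and basal genes were more often lower than higher in the interaction. Of 17 mesenchymal and matrix genes 9 were lower and 4 higher (median −1.08, −0.33 without a filter on low counts). COL5A2, a fibrillar collagen chain, held 13.3, 12.6 and 13.4 CPM in VCaP-CT and 3.39, 3.04 and 3.35 CPM in VCaP-CT-ER. It rose from 10.1, 10.1 and 9.62 CPM in VCaP-CT-BR to 35, 35.9 and 34.2 CPM in VCaP-CT-BR-ER, an interaction of −3.82 ± 0.098 (adjusted p = 9.49e-15). COL6A2 also had opposite steps (steps −0.94 and 1.05), while the fibronectin gene FN1 (steps −2.03 and −0.48) and COL5A1 (steps −1.16 and 0.29) fell on VCaP-CT only. PLOD2, which hydroxylates collagen lysines, rose on both (steps 8.49 and 5.39). Stromal and endothelial markers also differed between sublines. Summed over COL1A1, COL3A1, PDGFRB, PECAM1 and VWF, they stood at 11.9 to 14.4 CPM before TMM scaling in VCaP-CT, 2.06 to 2.32 CPM in VCaP-CT-ER, 1.89 to 2.98 CPM in VCaP-CT-BR and 1.63 to 2.18 CPM in VCaP-CT-BR-ER. VWF reached 6.68 CPM, PDGFRB 3.61 CPM and PECAM1 3.06 CPM, all in VCaP-CT, while COL1A1 did not exceed 1.33 CPM and COL3A1 0.197 CPM in any library. This difference runs with the higher level of the matrix and basal lists in VCaP-CT, and the part of other cells in those lists was not tested.

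Basal genes were lower in 6 and higher in 2 of 13 (median −1.13). ITGA6, a laminin receptor subunit, held 112, 109 and 114 CPM in VCaP-CT and 20.5, 18.6 and 21.8 CPM in VCaP-CT-ER and 63.9, 63.3 and 68.9 CPM in VCaP-CT-BR and 63, 59.4 and 61.3 CPM in VCaP-CT-BR-ER (interaction −2.37 ± 0.084). LAMA3, a laminin chain, had steps −2.05 and −0.19, and CD44, the hyaluronan receptor, fell on both (steps −2.19 and −0.76). ITGB4, which pairs with the ITGA6 protein, rose on VCaP-CT-BR only (steps −0.48 and 2.08). CAV1, which forms membrane caveolae, rose on VCaP-CT only (steps 2.03 and −0.27).

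Epithelial genes were lower in 15 and higher in 4 of 26, with a median interaction of −0.38. RAB25, a trafficking GTPase of epithelia, held 39.5, 40.4 and 37.7 CPM in VCaP-CT and 11.5, 10.9 and 10.3 CPM in VCaP-CT-ER and 31.3, 35.8 and 32 CPM in VCaP-CT-BR and 41.6, 43.2 and 42 CPM in VCaP-CT-BR-ER (interaction −2.2 ± 0.090, adjusted p = 2.78e-12). The junction genes TJP1 (steps −1.21 and 0.12) and JUP (steps −0.82 and 0.31) were lower, and TJP3 had opposite steps of −0.51 and 0.94. KRT19, a keratin with processed pseudogenes, rose on VCaP-CT only (steps 2.44 and −0.24). EPCAM was not called (0.07, adjusted p = 0.524).

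Secreted cystatins and trefoil factors had the lowest median of the lists described, −1.86, with 8 of 11 lower and 2 higher. The cystatins CST1, CST2 and CST4 are near-identical neighbours on chromosome 20 whose reads could be split, and all fell on VCaP-CT only (interactions −3.01, −5.52 and −2.59). CST1 and CST2 already had lower means in VCaP-CT-BR (0.87 and 1.22 CPM) than in VCaP-CT (7.56 and 15.4 CPM). CST2 ranged from 13 to 81 counts in VCaP-CT-BR and from 1 to 70 in VCaP-CT-BR-ER, so its step there is poorly determined. TFF1, the neighbour of TFF3, had opposite steps of −1.45 and 0.92, and the protease inhibitor SLPI fell on VCaP-CT only (steps −1.91 and −0.05). SPINK1, described above, and AGR2 were the 2 that were higher.

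Ribosomal protein genes had small interactions, 48 of 80 lower and 8 higher with the rest not called, none by 2-fold, with a median interaction of −0.29. RPL3 held 4873, 4926 and 4871 CPM in VCaP-CT and 3128, 3274 and 3041 CPM in VCaP-CT-ER and 3430.0, 3741 and 3607 CPM in VCaP-CT-BR and 3787, 3840.4 and 3852 CPM in VCaP-CT-BR-ER (interaction −0.73 ± 0.058), and like most of these genes it has processed pseudogenes. HOX genes, which set position along the body axis, were higher in 13 and lower in 3 of 21 (median 0.83). HOXC6 and HOXC9, which overlap in exons, rose on VCaP-CT only (steps 1.29 and 0.08 and steps 1.7 and 0.18), HOXC4 and HOXC5 fell on VCaP-CT-BR only (steps 0.18 and −1.3 and steps 0.13 and −1.33), and HOXD8 had opposite steps of −1.16 and 0.65. HOXB13, the prostate lineage factor, had steps −0.85 and 0.16.

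**Figure D4:**
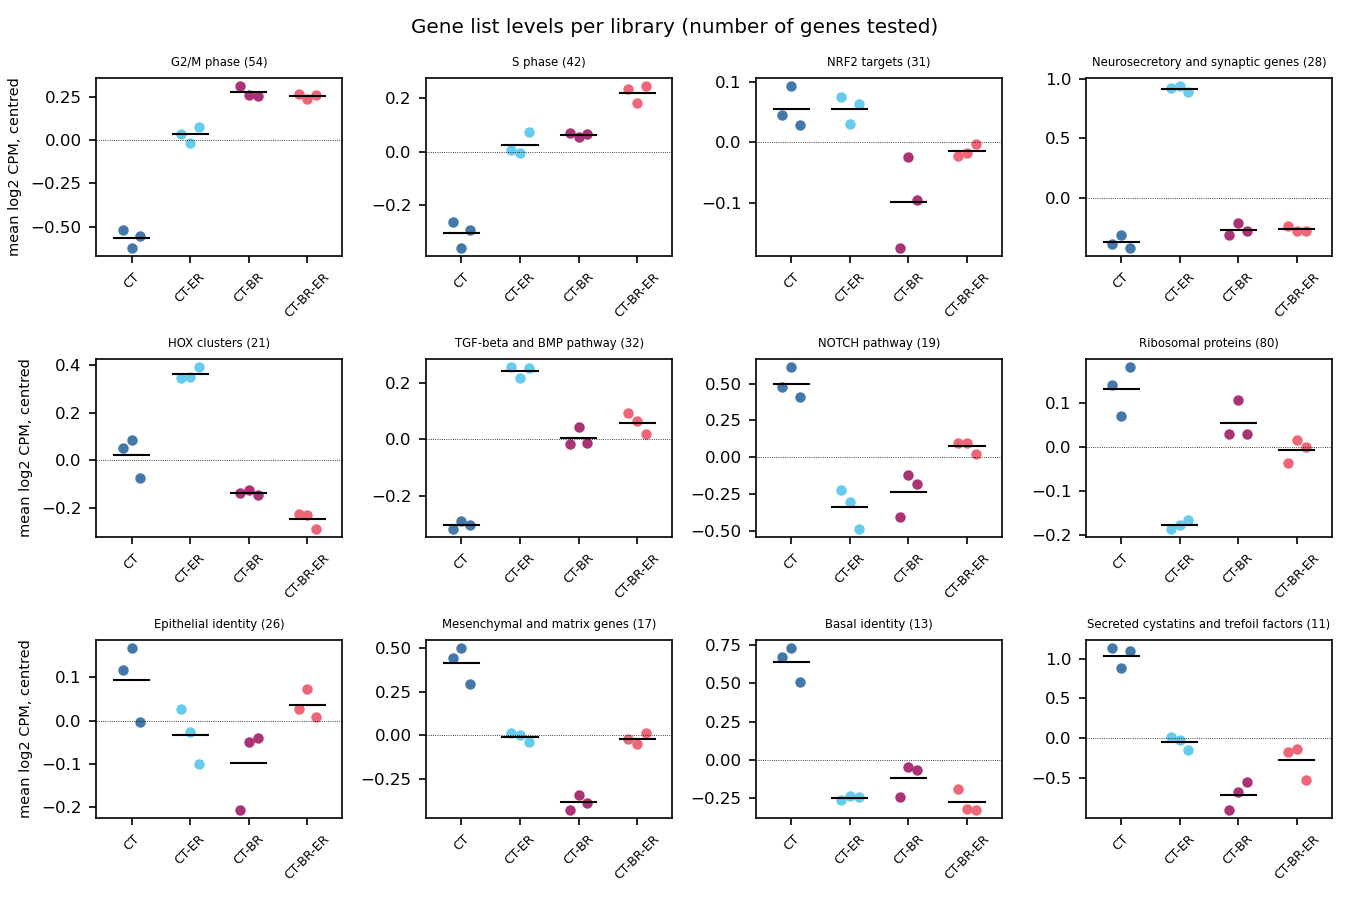
Mean log2 CPM of 12 gene lists (vertical axis, each gene centred on its mean over the 12 libraries, number of tested genes in brackets) with 3 points per subline and a bar at their mean. The G2/M list lies at −0.57 ± 0.051 (SD) in VCaP-CT and between 0.03 and 0.28 in the other sublines' means, and the neurosecretory list stands apart in VCaP-CT-ER at 0.92 ± 0.027. That mean is raised by a few genes of low level in VCaP-CT with large steps, such as GPM6A (10.38) and SCG2 (5.91), and the list's median step on VCaP-CT is 0.31.

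The other 37 lists, among them metabolic, stress and immune genes, had median interactions from −0.78 to 0.44, within 0.2 of 0 in 23 of them, with 40.0% to 93.8% of their members called. At the low end, clustered protocadherins were lower in 16 and higher in 7 of 38, although both median steps were downward (−1.52 and −0.99). The signature of persistent cell clusters, taken from single cells of LNCaP and its derivatives in the same study, had 295 genes higher and 88 lower of 530 (median 0.3). The study reports high S and G2/M scores in some of these clusters, and the overlap with the cell cycle lists was not tested. Interferon-stimulated genes were split evenly, 9 and 9 of 30, with a median of 0.00.

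Along the genome, 284 windows of 10 Mb held at least 20 tested genes, and 180 had a median interaction within 0.25 of 0. The first window of chromosome 5 stood furthest out, with a median of −2.69, 43 of 48 genes lower and 2 higher. The next lowest was its neighbour on chromosome 5 at −0.98, followed by chr21:40000000-49999999 at −0.75. The highest were chr4:170000000-179999999 at 0.88 and chr14:50000000-59999999 at 0.78.

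Within that window the large rise on VCaP-CT-BR was seen in the first tested genes. The first 34 tested genes, from PLEKHG4B to IRX2-DT at chr5:92151-2755397 (GRCh38), had a median step of 2.52 on VCaP-CT-BR and of −0.46 on VCaP-CT, and 32 of them rose more than 2-fold on VCaP-CT-BR by estimate. Of these, 31 were called lower in the interaction, 15 were among the 137 genes that rose on VCaP-CT-BR only and 14 were opposite. The next 14, beyond a gap without tested genes and ending at position 9546075, had a median step of 0.35 on VCaP-CT-BR, and none rose 2-fold. Of these 14, 12 were still called lower in the interaction and 1 higher, with a median interaction of −0.95 and a median step of −0.73 on VCaP-CT. Where in the gap the large rise ended cannot be seen. SDHA, the catalytic subunit of succinate dehydrogenase, held 129.8, 136 and 121 CPM in VCaP-CT and 97.6, 94.3 and 90.8 CPM in VCaP-CT-ER. It held 112, 122 and 119 CPM in VCaP-CT-BR and 822, 842 and 807 CPM in VCaP-CT-BR-ER, an interaction of −3.26 ± 0.072 (adjusted p = 1.43e-15), and it has several pseudogenes, SDHAP3 among the 34.

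Neighbours of unrelated function had steps of like size. BRD9, a bromodomain subunit of a chromatin remodeller, held 37.9, 37.9 and 37.2 CPM in VCaP-CT-BR and 279, 298 and 290.2 CPM in VCaP-CT-BR-ER. ZDHHC11, a palmitoyltransferase whose exons overlap BRD9, rose from 5.54, 4.78 and 4.79 to 39, 41 and 39.5 CPM. TRIP13, a mitotic checkpoint ATPase that also overlaps BRD9, rose from 58.4, 56.4 and 59.8 to 399, 398 and 392 CPM, and CLPTM1L from 28.9, 32.7 and 30.0 to 152, 162 and 161 CPM. TERT, the catalytic subunit of telomerase, held 1.18, 1.15 and 0.832 CPM in VCaP-CT and 0.582, 0.21 and 0.273 CPM in VCaP-CT-ER. It held 0.44, 0.186 and 0.372 CPM in VCaP-CT-BR and 3.74, 2.87 and 2.85 CPM in VCaP-CT-BR-ER, an interaction of −4.77 ± 0.44 (adjusted p = 9.9e-08). PLEKHG4B went furthest, with 3.27, 3.35 and 2.13 CPM in VCaP-CT and 0.707, 0.735 and 0.844 CPM in VCaP-CT-ER and 2.15, 2.55 and 2.06 CPM in VCaP-CT-BR and 42, 40.3 and 40.9 CPM in VCaP-CT-BR-ER. The homeobox gene IRX4 rose from 9.91, 13.1 and 11.5 to 71.3, 77.5 and 72.2 CPM, whereas ICE1, the first tested gene after the gap, went from 90.7, 86.9 and 94.1 to 132, 118 and 129.8 CPM. The exceptions were the transporter SLC6A19, with steps of 6.76 and 1.45, and the pseudogenes PPP4R2P1 and PPP4R2P5, which were not called. SLC6A19 averaged only −2.35 on the log2 CPM scale, so the size of its steps is uncertain. TRIP13, CLPTM1L, TERT, IRX4 and ICE1 were picked after their values were seen. DNA was not measured in these libraries, so copy number was not tested.

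**Figure D5:**
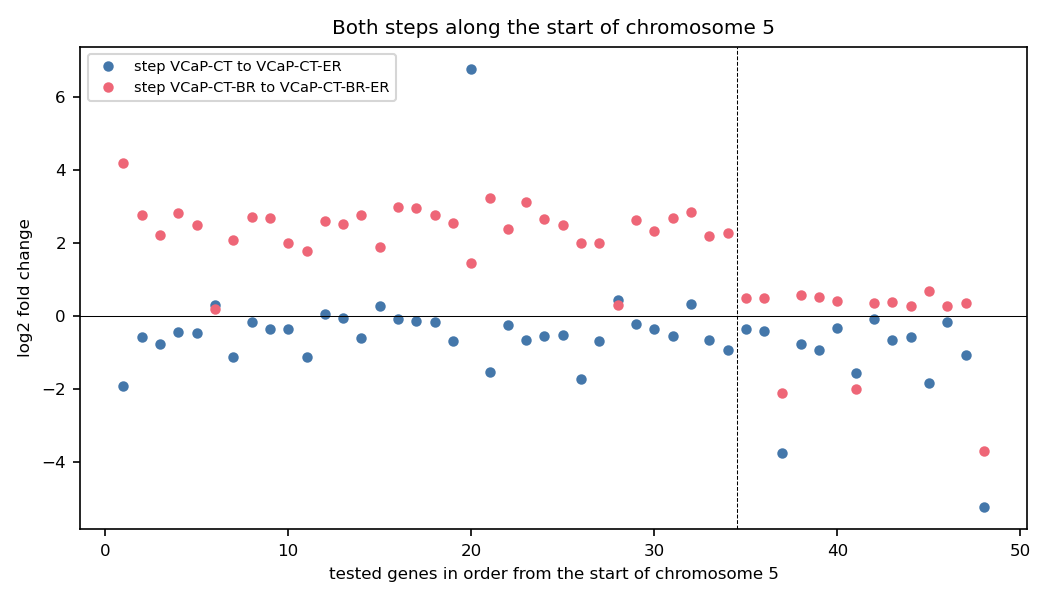
Log2 fold change of both enzalutamide steps (vertical axis) for the 48 tested genes of the first window of chromosome 5, in order from the start of the chromosome (horizontal axis), with the dashed line at the gap after the first 34. Nearly all of the 34 rose on VCaP-CT-BR, with a median step of 2.52, and the 14 beyond the gap had a median of 0.35.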

How the data were processed

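Bulk RNA-seq libraries of VCaP sublines were analysed, 12 of the 15 in the series. Per the labels and the study's methods, the authors sequenced on an Illumina instrument, aligned to GRCh38 with STAR 2.5.4b and deposited raw fragment counts per gene from featureCounts 1.6.2 on GENCODE 28. Counting took fragments over exons with no strand option in the file headers, so reads of a gene and of its antisense partner cannot be told apart. Symbols came from a table of Ensembl identifiers (57754 of 58381 matched). The 33665716 to 46935279 counts per library bound the precision, and floors of 3 counts cover counting error only.

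Genes were filtered with edgeR 4.0.16 (filterByExpr, minimum count 10, R 4.3.3), scaled by TMM and fitted with a term per subline over 12 libraries. The quasi-likelihood test of the interaction used Benjamini-Hochberg adjustment at 0.05. The biological coefficient of variation was 0.062. On simulated data of this interaction (18539 genes tested), of 50 genes each the fit called 50 at a log2 interaction of −2, 40 at −1, 44 at 1 and 50 at 2, all in the right direction, and 11 of 18339 unchanged ones. The simulation altered VCaP-CT-ER only, gave all other genes equal means in every subline and drew counts from the fitted model. No altered gene had an average level near the count floor. In the data 50.8% of genes were called, so these rates need not hold there. Members and lists were chosen with earlier results of these data known. There were 34 lists written for this work, 11 signatures of the study, the S and G2/M genes of Seurat 5.3.0, and 6 families by symbol.

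Named genes were, per class and direction, the 4 with the largest interaction at an average log2 CPM of at least 1, per list up to 5 called members averaging no less than 0 on the log2 CPM scale, and KLK3, KLK2, TMPRSS2, FKBP5, NR3C1, ERG, MYC, MKI67, PLOD2 and NQO1. Further list members named for their role, beyond those 5, and the other genes marked so in the text were picked after their values were seen. Some genes that the rule names are not reported here. Promoters are RefSeq sequences of GRCh38.p14. Alternatives were DESeq2 1.42.0, other scalings and filters, all 15 libraries, the replicate number as a block, a test against 2-fold, other class limits and each library left out. Figures used matplotlib 3.10.9.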

Additional observations from a re-analysis of the deposited data

Results flagged for a closer look

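Genes with the largest interactions in each class are those for which the test of the difference between both enzalutamide steps itself was called, and the values below are log2 interactions. Opposite genes that rose on VCaP-CT were MIR2052HG (8.73), CDH17 (8.49), PI15 (7.50) and CSAG1 (7.27). Opposite genes that fell there were OR51E2 (−11.59), OR51E1 (−10.35), ST8SIA6-AS1 (−6.90) and PLEKHG4B (−6.12). On VCaP-CT only, TENM2 (6.02), ATOH8 (5.30) and APOH (4.97) rose, and FMOD (−6.83), CST2 (−5.52), TFF3 (−5.08) and EFCC1 (−4.77) fell. On VCaP-CT-BR only, SDHA (−3.26), ZFP36L1 (−3.17), ZDHHC11 (−3.09) and BRD9 (−3.08) rose, and CSMD2 (2.77), DOCK2 (2.03), PAQR5 (1.86) and ALDH1A1 (1.84) fell. For CDH17, CSAG1 and OR51E2 a subline had at most 3 counts in every library, so the fitted value depends on the prior count and is no measure of the fold. OR51E1, ST8SIA6-AS1, TENM2 and FMOD also had few counts in a subline, as given above, so the size of their values is uncertain too.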

How the results depend on the processing

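The counts of called interactions and of each class stayed within 1.5 times under DESeq2, both other scalings, no filter, all 15 libraries and the replicate block. No scaling moved the median of all genes by over 0.1. None of the 115 named genes reversed, and 26 lost their call somewhere, 25 of them only in the test against 2-fold and BEX1 also elsewhere. That test, stricter by construction, called 1324 genes, with 211 that rose and 277 that fell on VCaP-CT only and 56 that rose and 29 that fell on VCaP-CT-BR only. It called 8 members of the TGF-beta and BMP list, 7 of NOTCH, 4 of G2/M, 1 of S phase, 7 of the androgen-induced genes, 5 of the steroid and nuclear receptors, 2 of androgen synthesis, 5 of NRF2, 6 of the neurosecretory, 5 of the matrix, 3 of the epithelial, 0 of the ribosomal (edgeR's glmTreat, 0 also at an unadjusted p under 0.05, against 56 in edgeR's test without the 2-fold limit) and 5 of the HOX list.

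With a limit of 0.25 instead of 0.5 for the background without a step, 291 rose and 337 fell on VCaP-CT only and 83 rose and 50 fell on VCaP-CT-BR only, and with called steps of at least 1.5 the numbers were 266, 303, 55 and 35. Under a minimum of 10 counts per library, 58 fell on VCaP-CT-BR only, 1 glucuronidation and 5 basal members were called, and the medians were 0.35 (TGF-beta and BMP), 0.30 (glucuronidation) and −0.09 (neurosecretory, turning the direction), the filter testing fewer genes. Without a filter the medians were 0.50 (TGF-beta and BMP), −0.33 (matrix) and −0.92 (basal). With all 15 libraries they were −0.05 (androgen synthesis, turning the direction), −0.74 (matrix) and −0.91 (basal). Scaling by library totals gave 0.20 for the androgen-induced genes. The cause of these shifts was not tested where none is given.

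With each library left out, 8959 to 9775 genes were called. List medians ranged from −0.02 to 0.11 (androgen synthesis, below 0 only without replicate 3 of VCaP-CT), −1.35 to −0.96 (basal), −1.22 to −0.99 (matrix), 0.13 to 0.53 (neurosecretory), −2.0 to −1.5 (cystatins and trefoil factors), −0.30 to −0.15 (steroid and nuclear receptors) and 0.36 to 0.52 (TGF-beta and BMP). The neurosecretory median was 0.53 without replicate 3 of VCaP-CT-BR-ER, 0.40 and 0.38 without replicates 1 and 2 of VCaP-CT and 0.13 without replicate 3 of VCaP-CT. The median of the steroid and nuclear receptors was −0.24 to −0.30 without replicate 3 of VCaP-CT, 1 of VCaP-CT-ER, 2 or 3 of VCaP-CT-BR, or 1 or 3 of VCaP-CT-BR-ER. Leaving out the genes at the start of chromosome 5, a choice made after seeing the data, left 122 genes that rose on VCaP-CT-BR only and 272 opposite genes that fell on VCaP-CT. No new fit was made for this, so it is a subtraction and no check of the remaining genes.

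Same-numbered replicates were not paired by the labels. Of 18 same-number correlations of deviations, 9 exceeded 0.1, with a mean of 0.105 and a range of −0.505 to 0.499. For different numbers 9 of 36 exceeded 0.1, with a mean of −0.052 and a range of −0.58 to 0.527. Deviations were taken from each subline's own mean, which ties both means to each other. Their difference therefore cannot show whether same-numbered replicates share an effect. The replicate block gave 10043 called genes and 2987 of at least 2-fold.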
